A study of Mus musculus with 9 samples.

Results

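The troponins and tropomyosins are the proteins that sit along the actin thin filament of striated muscle and make its contraction depend on calcium. They were followed here as 9 genes, Tnnt2, Tnni3, Tnni1, Tnnc1, Tnnt1, Tpm1, Tpm2, Tpm3 and Tpm4, found by matching their symbols in the mouse GENCODE annotation (GRCm38) to the Ensembl identifiers of the count tables. All 9 were present in every count table, and all 9 passed the filter on low counts.

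RNA was sequenced from embryonic mouse heart cells in which one of 2 DNA methyltransferases, the enzymes that place methyl groups on DNA, had been knocked down. Ventricles of CD-1 embryos at embryonic day 13.5 were pooled by litter, dissociated with papain, pre-plated to remove cells that stick quickly, and cultured for 48 h before transfection by lipofection with 0.012 pmol siRNA, per the labels' protocols. The groups were DNMT3a siRNA (a pool of 4 siRNAs), DNMT3b siRNA (a pool of 4 siRNAs) and negative siRNA, a commercial control, with 3 libraries each. All cells were harvested after a further 72 h and sorted magnetically by VCAM1, an adhesion molecule that embryonic cardiomyocytes carry on their surface. The siRNA reached a mixed primary culture rather than a genetic line, and litters were pooled before plating. Whether the 3 libraries per siRNA stem from different litters or cultures is not stated in the labels. The p-values therefore reflect the variation among these 9 libraries alone, and that variation may be technical.

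Troponin has 3 subunits: troponin C binds calcium, troponin I inhibits the interaction of actin with myosin, and troponin T anchors the complex to tropomyosin. Tropomyosin is a coiled-coil rod that lies in the groove of the actin filament and covers or exposes the sites that myosin binds. The embryonic heart uses both the slow skeletal form of troponin I, from Tnni1, and the cardiac form, from Tnni3, and the cardiac form replaces the slow skeletal one as the mouse heart matures after birth. Tnnt2 encodes cardiac troponin T and Tnnc1 encodes the troponin C shared by heart and slow skeletal muscle, whereas Tnnt1 encodes the slow skeletal troponin T. Of the tropomyosin genes, Tpm1 is the main one of the adult mouse ventricle. All 4 also give forms found outside striated muscle, Tpm3 and Tpm4 chiefly so.

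The genes lie on several chromosomes in GRCm38. Tnni1 (1:135779434-135810989) and Tnnt2 (1:135836354-135852260) are neighbours on the plus strand of chromosome 1, separated by 25364 bp that hold Lad1. Tnnt1 (7:4504570-4516382) and Tnni3 (7:4518305-4524229) are neighbours on the minus strand of chromosome 7, only 1922 bp apart and with no gene between them. Tnnc1 lies at 14:31208312-31211729, plus strand, within the bounds of the oppositely transcribed Nisch, with which it shares no exon sequence. The tropomyosin genes are Tpm1 at 9:67022590-67049406 (minus), Tpm2 at 4:43514711-43523765 (minus), Tpm3 at 3:90072649-90100902 (plus) and Tpm4 at 8:72134975-72153142 (plus).

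Because DNMT3A and DNMT3B methylate cytosine chiefly where guanine follows it, the promoters of the 4 genes that were called higher after knockdown are shown beside those of Tnnt1 and Tpm4, which were not, with every CG dinucleotide in capitals. The sequences are from RefSeq (GRCm38.p6), run 5′ to 3′ on the gene's own strand and cover the 250 bases before the annotated start, of which the longest stretch free of annotated GENCODE exons is printed. The RefSeq starts of Tnni3, Tnni1, Tnnt1 and Tpm4 lie inside the GENCODE bounds of these genes. The windows are chr1:135836084-135836333 (plus) for Tnnt2, chr7:4522529-4522694 (minus) for Tnni3, chr1:135799171-135799401 (plus) for Tnni1, chr14:31208062-31208311 (plus) for Tnnc1, chr7:4516005-4516225 (minus) for Tnnt1 and chr8:72135050-72135258 (plus) for Tpm4.
Tnnt2: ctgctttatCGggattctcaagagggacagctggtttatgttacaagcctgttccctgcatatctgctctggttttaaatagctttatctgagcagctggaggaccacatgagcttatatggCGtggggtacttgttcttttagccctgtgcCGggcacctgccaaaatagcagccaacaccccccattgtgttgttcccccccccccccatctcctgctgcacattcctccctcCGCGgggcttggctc
Tnni3: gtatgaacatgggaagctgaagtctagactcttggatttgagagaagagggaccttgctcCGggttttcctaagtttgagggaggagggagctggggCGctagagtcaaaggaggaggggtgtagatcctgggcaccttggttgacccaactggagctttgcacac
Tnni1: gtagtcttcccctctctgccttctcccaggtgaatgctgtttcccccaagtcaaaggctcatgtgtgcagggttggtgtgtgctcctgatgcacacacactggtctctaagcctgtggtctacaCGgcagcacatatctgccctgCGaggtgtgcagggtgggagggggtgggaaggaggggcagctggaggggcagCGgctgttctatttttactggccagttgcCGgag
Tnnc1: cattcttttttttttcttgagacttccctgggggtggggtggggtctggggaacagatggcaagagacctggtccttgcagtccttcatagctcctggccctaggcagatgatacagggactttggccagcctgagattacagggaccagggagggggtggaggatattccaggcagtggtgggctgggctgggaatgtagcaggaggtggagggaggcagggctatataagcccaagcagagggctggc
Tnnt1: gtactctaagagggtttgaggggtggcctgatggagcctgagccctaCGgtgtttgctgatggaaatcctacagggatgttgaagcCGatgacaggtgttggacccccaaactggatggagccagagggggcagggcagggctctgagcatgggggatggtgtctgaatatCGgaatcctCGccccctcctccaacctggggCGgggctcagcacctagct
Tpm4: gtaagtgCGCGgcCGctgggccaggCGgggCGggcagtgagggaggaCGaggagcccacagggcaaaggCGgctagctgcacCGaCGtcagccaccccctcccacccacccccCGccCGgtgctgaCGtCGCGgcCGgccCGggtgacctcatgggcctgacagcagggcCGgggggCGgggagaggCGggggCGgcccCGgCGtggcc

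Over the full 250 bases, all 9 members had a RefSeq window, and 3 of them had a second one. The median window among all 32851 had 6 CG dinucleotides, with quartiles of 2 and 16. Tnnt2 had 5 in the window shown and 0 in a second window inside the gene. Tnni3 had 3, Tnni1 had 5 and 6 in its overlapping windows, Tnnt1 had 6, and Tnnc1 had 0. Among the tropomyosin genes, Tpm1 had 19, Tpm2 had 17, Tpm4 had 27, and the windows of Tpm3 had 2 and 11. The troponin windows therefore held at most 6, the median, Tnnt1 included, while those of Tpm1, Tpm2 and Tpm4 lay above the upper quartile and the Tpm3 windows below it. Genes that were called and genes that were not both had windows of 6 CG or fewer. DNA methylation is not among the measurements analysed here, so these counts describe the sequence alone.

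Of the muscle promoter motifs searched in the same 250 bases on both strands, the M-CAT element (CATTCC, or GGAATG on the other strand) was found in 3 members and in 12.6% of all windows. It lay at bases -27 to -22 before the start in Tnnt2, -58 to -53 in Tnnc1 and -56 to -51 in Tpm1. The TATA box letters TATAAA, present in 12.4% of all windows, were found in Tnnt1 only, at bases -30 to -25. No member window held the MEF2 site (2.92% of all windows) or the CArG box (1.47%). These are matches of letters and do not show that a factor binds.

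Each library held between 27852412 and 35896018 reads counted in genes. The targeted transcripts were lower in the libraries labelled as their knockdown. Dnmt3a averaged 46.5 ± 6.32 CPM after DNMT3a siRNA and 259 ± 23.2 CPM after negative siRNA (SD, n = 3 each), and Dnmt3b averaged 1.70 ± 0.652 CPM after DNMT3b siRNA and 4.30 ± 0.0372 CPM after negative siRNA. Dnmt3b was thus a low transcript in control cells. All 10 cardiomyocyte markers and all 10 fibroblast markers had counts in every library. The summed level of 10 fibroblast markers was 38430 to 42264 CPM after DNMT3a siRNA, 36316 to 43090 CPM after DNMT3b siRNA and 37530 to 57176 CPM after negative siRNA. The summed level of 10 cardiomyocyte markers was 4434 to 5896 CPM after DNMT3a siRNA, 5330 to 6514 CPM after DNMT3b siRNA and 1549 to 2266 CPM after negative siRNA. Vcam1, the sort marker, was not called by edgeR in either knockdown (adjusted p = 0.0510 after DNMT3a siRNA, where DESeq2 called it lower, and 0.632 after DNMT3b siRNA). In a bulk sample, fewer cells of a type and less RNA per cell cannot be told apart.

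Knockdown of either methyltransferase was followed by higher transcript levels of 4 troponin genes, the slow skeletal Tnni1 among them, with no call among the tropomyosins. Tnnt2, Tnni3, Tnni1 and Tnnc1 rose after DNMT3a siRNA and also after DNMT3b siRNA, each against the same negative siRNA libraries, by 1.68-fold to 4.04-fold. Tnnt1, Tpm1, Tpm2, Tpm3 and Tpm4 did not pass the test in either knockdown, and no member fell. An adjusted p under 0.05 in edgeR's quasi-likelihood test over all 16561 genes tested was the threshold for a call. Levels are given as CPM, the reads of a gene relative to all reads counted in genes of that library, scaled between libraries by the TMM method.

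For DNMT3a siRNA over negative siRNA, 4 of 9 members were called higher and 0 lower, beside 10.1% of all genes called in either direction and 4.87% called higher. The median log2 fold change of the 9 members was 0.75, against 0.02 over all genes tested. All 3 DNMT3a libraries lay above all 3 negative libraries for 4 members, a pattern that 14.1% of all genes showed. For DNMT3b siRNA over negative siRNA, the same 4 members were called higher and 0 lower, beside 5.64% of all genes called in either direction and 3.52% called higher. The members' median was 1.00, against 0.00 over all genes tested. All 3 DNMT3b libraries lay above the 3 negative libraries for 7 of the 9 members, a pattern found in 13.8% of all genes. The 2 comparisons share their negative libraries.

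**Figure D1:**
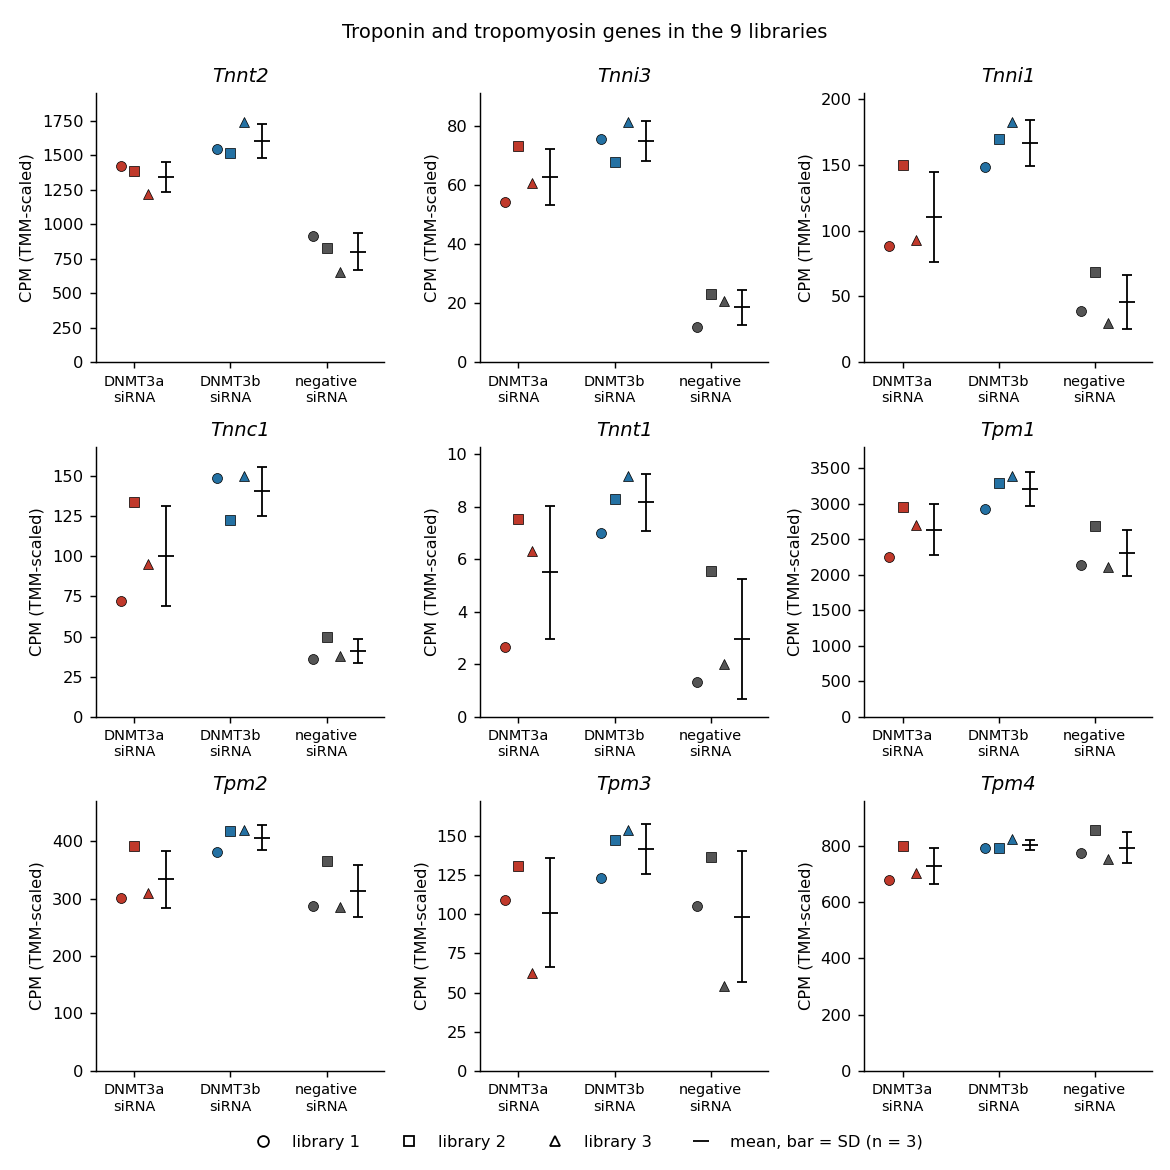
TMM-scaled CPM (y axis, from 0) of each of the 9 genes in each library, by siRNA group (x axis); symbols mark the library number, and the dash with its bar is the mean ± SD of 3 libraries. For Tnnt2, Tnni3, Tnni1 and Tnnc1 every knockdown library lies above every negative library, while the groups overlap for Tpm3 and Tpm4.

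Among the inhibitory subunits, Tnni3, the cardiac form, had the largest fold changes of the 9 genes. It stood at 54.4, 73.1 and 60.6 CPM in DNMT3a libraries 1 to 3, at 75.5, 67.8 and 81.4 CPM in DNMT3b libraries 1 to 3, and at 11.8, 23.3 and 20.7 CPM in negative libraries 1 to 3. Neither knockdown group overlapped the negative group, and the knockdowns overlapped each other. It rose by 1.76 ± 0.23 (log2 fold change ± SE; adjusted p = 0.00188) after DNMT3a siRNA and by 2.01 ± 0.23 (adjusted p = 0.00154) after DNMT3b siRNA. These calls held under all 19 alternatives tried. Tnni3 shares 86 bp of exon with Dnaaf3 on the same strand, where reads cannot be assigned to one gene, but Dnaaf3 had only 40 to 106 counts per library beside 425 to 2457 for Tnni3.

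The slow skeletal inhibitory subunit Tnni1 stood at 88.6, 149.7 and 92.9 CPM in the DNMT3a libraries, at 148, 169 and 183 CPM in the DNMT3b libraries, and at 38.6, 68.5 and 29.8 CPM in the negative libraries. Library 2 was the highest in both the DNMT3a and the negative group, and neither knockdown overlapped the negative group. Tnni1 rose by 1.27 ± 0.32 (adjusted p = 0.0452) after DNMT3a siRNA and by 1.87 ± 0.33 (adjusted p = 0.0163) after DNMT3b siRNA. The first of these calls was close to the threshold. It was made under 8 of 19 alternatives and lost when any library other than negative 2 was left out, with adjusted p from 0.0645 to 0.149. After DNMT3b siRNA the call was lost without DNMT3b library 2 (adjusted p = 0.0645), DNMT3b library 3 (0.0786) or negative library 1 (0.0820).

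The calcium-binding subunit Tnnc1 stood at 72.1, 134 and 95.0 CPM in the DNMT3a libraries, at 149, 123 and 150.4 CPM in the DNMT3b libraries, and at 35.9, 49.7 and 37.7 CPM in the negative libraries. The highest negative library was below the lowest knockdown library. Tnnc1 rose by 1.29 ± 0.22 (adjusted p = 0.00736) after DNMT3a siRNA and by 1.78 ± 0.22 (adjusted p = 0.00262) after DNMT3b siRNA. Nisch, around it on the other strand, was not called in either comparison (adjusted p = 0.222 after DNMT3a siRNA and 0.929 after DNMT3b siRNA).

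Tnnt2, the cardiac tropomyosin-binding subunit, was the troponin gene with the highest level, also per kilobase of exon. It reached 1422, 1386 and 1219 CPM in the DNMT3a libraries and 1549, 1519.7 and 1745 CPM in the DNMT3b libraries, against 919, 828 and 656 CPM in the negative libraries. No knockdown library overlapped the negative group. Tnnt2 rose by 0.75 ± 0.13 (adjusted p = 0.00509) after DNMT3a siRNA and by 1.00 ± 0.13 (adjusted p = 0.00158) after DNMT3b siRNA, the smallest fold changes of the 4 called genes. When the test required a change beyond 1.5-fold, only Tnni3 kept its call after DNMT3a siRNA, and only Tnni3 and Tnnc1 after DNMT3b siRNA.

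The slow skeletal troponin T gene Tnnt1, the neighbour of Tnni3, was low in all libraries and did not pass the test. It stood at 2.66, 7.55 and 6.31 CPM in the DNMT3a libraries, at 7.01, 8.32 and 9.18 CPM in the DNMT3b libraries, and at 1.31, 5.56 and 2.00 CPM in the negative libraries. The DNMT3b libraries lay above all negative libraries, whereas the DNMT3a libraries overlapped them. Its log2 fold change was 0.90 ± 0.54 (adjusted p = 0.358) after DNMT3a siRNA and 1.47 ± 0.54 (adjusted p = 0.161) after DNMT3b siRNA. Without negative library 2 Tnnt1 was called in both comparisons, at 1.75 (adjusted p = 0.0323) after DNMT3a siRNA and at 2.32 (adjusted p = 0.0117) after DNMT3b siRNA.

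The fast skeletal troponins were at or near the detection limit. Tnnc2, the fast troponin C, had 0 counts in all 9 libraries and was not tested. Tnni2, the fast troponin I, had 2 to 14 counts per library, and Tnnt3, the fast troponin T, had 8 to 84. Neither was called against negative siRNA by edgeR, DESeq2 or limma-voom, and Tnnt3 alone had an unadjusted p under 0.05, after DNMT3b siRNA. Tnnt3 had 8, 26 and 16 counts in the DNMT3a libraries and 26, 84 and 72 counts in the DNMT3b libraries, and was lower after DNMT3a siRNA than after DNMT3b siRNA (log2 fold change -1.92 ± 0.49, adjusted p = 0.0337), a call that DESeq2 also made and limma-voom did not.

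Tpm1 had the most counted reads of the 9 genes. It stood at 2243, 2955 and 2692 CPM in the DNMT3a libraries, at 2929, 3284 and 3391 CPM in the DNMT3b libraries, and at 2135, 2680.2 and 2102 CPM in the negative libraries. The DNMT3a and negative ranges overlapped, whereas the lowest DNMT3b library was above the highest negative one. The log2 fold change was 0.19 ± 0.13 (adjusted p = 0.434) after DNMT3a siRNA and 0.47 ± 0.13 (adjusted p = 0.0657) after DNMT3b siRNA. Without negative library 2 the DNMT3b value became 0.59 and was called (adjusted p = 0.0187), and DESeq2 called it with all libraries (adjusted p = 0.0106).

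Tpm2, known as the beta tropomyosin gene, stood at 301, 391 and 309.7 CPM in the DNMT3a libraries, at 381, 418 and 419 CPM in the DNMT3b libraries, and at 287, 366 and 286 CPM in the negative libraries. As for Tpm1, only the DNMT3b libraries were separate from the negative ones. The log2 fold change was 0.09 ± 0.13 (adjusted p = 0.718) after DNMT3a siRNA and 0.37 ± 0.13 (adjusted p = 0.110) after DNMT3b siRNA. Without negative library 2 the DNMT3b value was 0.50 and was called (adjusted p = 0.0241).

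Tpm4, the source of a widely expressed nonmuscle tropomyosin, was nearly level. It stood at 679, 799.9 and 704 CPM in the DNMT3a libraries, at 793, 790.5 and 824 CPM in the DNMT3b libraries, and at 774, 856 and 752 CPM in the negative libraries. All groups overlapped, and the log2 fold change was -0.13 ± 0.09 (adjusted p = 0.448) after DNMT3a siRNA and 0.02 ± 0.09 (adjusted p = 0.946) after DNMT3b siRNA. The antisense gene Gm26586 overlaps 134 bp of its exons but had no more than 99 counts in any library.

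**Figure D2:**
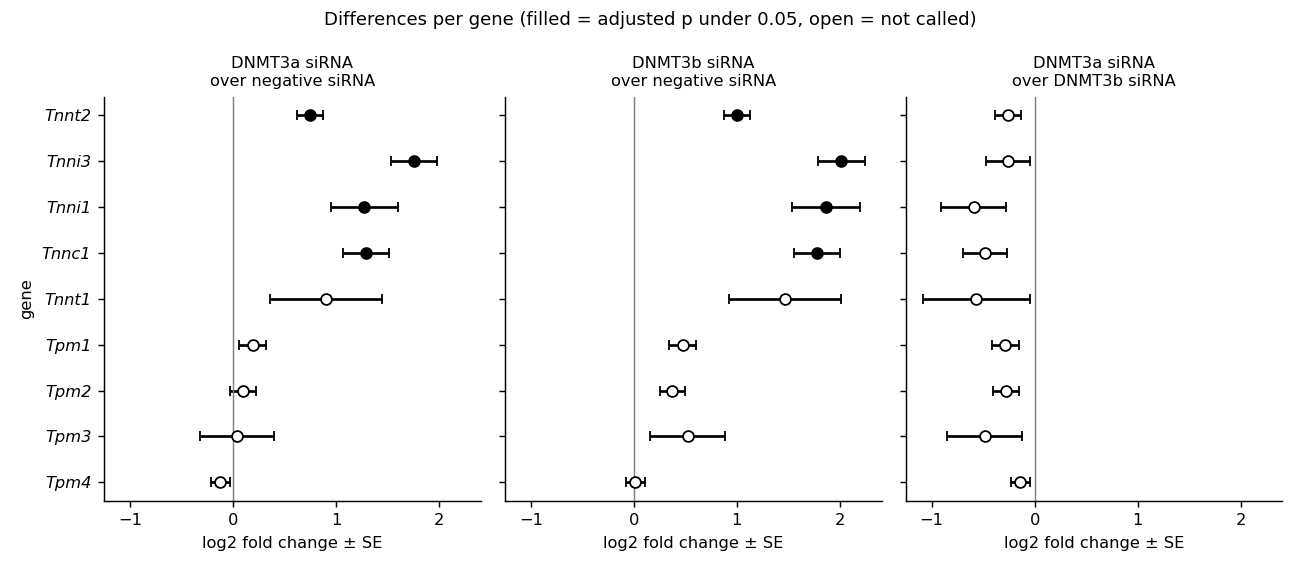
Log2 fold change (x axis) of each of the 9 genes (y axis) in the 3 comparisons, with bars of ± 1 SE from edgeR; filled points have an adjusted p under 0.05. The filled points are Tnnt2, Tnni3, Tnni1 and Tnnc1 in both knockdowns over negative siRNA, and no point is filled for DNMT3a siRNA over DNMT3b siRNA.

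Tpm3 could not be measured with the same certainty. Its counts were 109, 131 and 62.8 CPM in the DNMT3a libraries, 123, 148 and 154 CPM in the DNMT3b libraries, and 105, 137 and 53.9 CPM in the negative libraries, and the log2 fold changes were 0.04 ± 0.36 (adjusted p = 0.969) and 0.52 ± 0.36 (adjusted p = 0.459) after DNMT3a and DNMT3b siRNA. Tpm3-rs7, a single-exon gene on chromosome 14 annotated as related to Tpm3, took 151, 96.4 and 176 CPM in the DNMT3a libraries, 99.6, 68.9 and 69.6 CPM in the DNMT3b libraries, and 157, 93.5 and 177 CPM in the negative libraries. The libraries low in Tpm3 were the ones high in Tpm3-rs7. Across the 9 libraries the 2 genes had a Pearson correlation of -0.940, given as a description. Their sum varied much less, at 242 ± 16.9 CPM after DNMT3a siRNA, 221 ± 3.81 CPM after DNMT3b siRNA and 241 ± 17.9 CPM after negative siRNA (SD, n = 3 each). Reads that matched more than 1 place were not counted in any gene, and how reads were divided between the 2 genes was not tested.

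**Figure D3:**
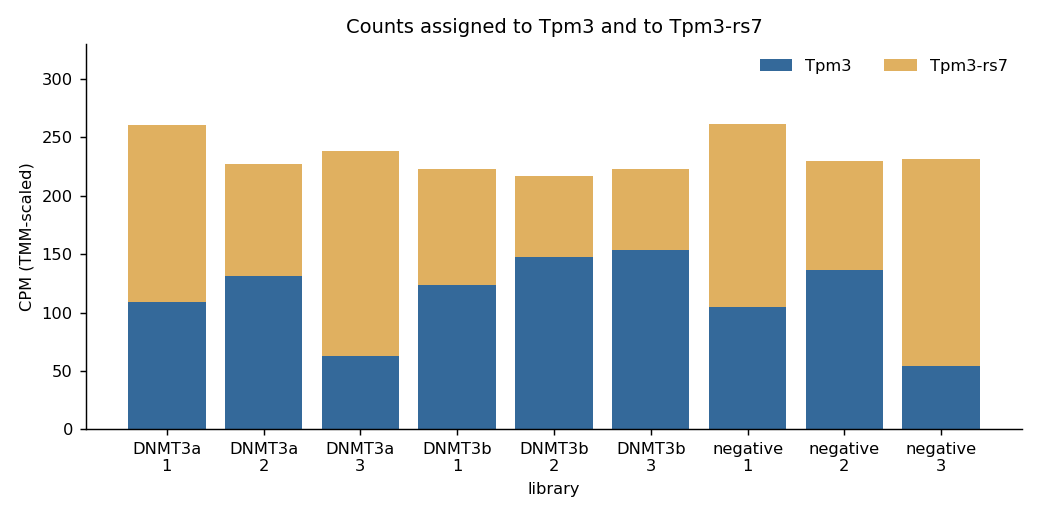
TMM-scaled CPM (y axis) counted in Tpm3 (lower part of each bar) and in Tpm3-rs7 (upper part) in each library (x axis). The bars reach 217 to 262 CPM in all 9 libraries, while the Tpm3 share runs from 23.3% in negative library 3 to 68.8% in DNMT3b library 3.

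Per kilobase of annotated exon, the order of the 9 genes differed little between groups. After DNMT3a siRNA the levels were 405 CPM per kb for Tpm1, 330.3 for Tpm4, 173 for Tnnt2, 115 for Tpm2, 96.5 for Tnnc1, 30.7 for Tnni1, 30.4 for Tnni3, 16.6 for Tpm3 and 2.50 for Tnnt1. After DNMT3b siRNA they were 494 CPM per kb for Tpm1, 364 for Tpm4, 207 for Tnnt2, 139.6 for Tpm2, 135 for Tnnc1, 46.3 for Tnni1, 36.3 for Tnni3, 23.3 for Tpm3 and 3.71 for Tnnt1. After negative siRNA they were 360.3 CPM per kb for Tpm4, 356 for Tpm1, 108 for Tpm2, 103 for Tnnt2, 39.4 for Tnnc1, 16.2 for Tpm3, 12.7 for Tnni1, 9.01 for Tnni3 and 1.34 for Tnnt1. Tpm3 therefore stood below Tnni1 and Tnni3 in both knockdowns but above them in controls, where neighbours among these 3 differed by less than the larger of their SDs. Tpm1 and Tpm4 in controls, Tnnt2 and Tpm2 in controls, Tnni1 and Tnni3 after DNMT3a siRNA, and Tpm2 and Tnnc1 after either knockdown also differed by less than the larger SD. The length is the sum of all annotated exons, so the order between genes depends on it, while differences between groups do not.

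For the ratio of cardiac to slow skeletal troponin I, no difference between groups passed the exact test, and the negative libraries varied most. The ratio Tnni3 over Tnni1, per kilobase of exon, was 1.07, 0.852 and 1.14 in DNMT3a libraries 1 to 3, 0.891, 0.699 and 0.778 in DNMT3b libraries 1 to 3, and 0.536, 0.592 and 1.21 in negative libraries 1 to 3. Negative library 3 stood above all 8 others, so the negative group spanned both knockdown groups. On the log2 scale the ratio averaged 0.02 ± 0.22 after DNMT3a siRNA, -0.35 ± 0.18 after DNMT3b siRNA and -0.46 ± 0.64 after negative siRNA (SD, n = 3 each). The differences were 0.48 for DNMT3a over negative siRNA (exact permutation test, two-sided, p = 0.4, adjusted over 9 ratio tests 0.6) and 0.11 for DNMT3b over negative siRNA (exact p = 0.9, adjusted 0.9). Between the knockdowns the difference was 0.37 for DNMT3a over DNMT3b siRNA (exact p = 0.2, adjusted 0.6). This was larger than the SD of either knockdown, but the groups overlapped, at 0.852 in DNMT3a library 2 and 0.891 in DNMT3b library 1. Negative libraries 1 and 2 lay below all 6 knockdown libraries. Without negative library 3 the difference was 0.85 for DNMT3a over negative siRNA and 0.48 for DNMT3b over negative siRNA (exact permutation p = 0.2 for both). Without negative library 1, or without negative library 2, the DNMT3b difference instead changed sign. It was thus reversed in 2 alternatives and kept its sign in 8, while the DNMT3a difference kept its sign in 10. With 3 libraries against 3 the smallest p this test can give is 0.1. Without negative library 3 the groups were fully separated, so 0.2 was the smallest p the test could give there. Expressed as a share, Tnni3 made up 50.3 ± 3.80% of the 2 troponin I transcripts after DNMT3a siRNA, 44.0 ± 3.00% after DNMT3b siRNA and 42.3 ± 10.9% after negative siRNA. The size of this share depends on the summed exon lengths, 2063 bp for Tnni3 (longest transcript 912 bp) and 3600 bp for Tnni1 (2153 bp).

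The cardiac form dominated troponin T throughout. Tnnt1 made up 1.44 ± 0.682% of troponin T transcripts per kilobase after DNMT3a siRNA, 1.76 ± 0.169% after DNMT3b siRNA and 1.29 ± 0.926% after negative siRNA (SD, n = 3 each). These shares likewise depend on the summed exon lengths. The log2 ratio of Tnnt2 over Tnnt1 differed by -0.29 (exact permutation p = 0.7) for DNMT3a over negative siRNA and by -0.72 (exact permutation p = 0.4) for DNMT3b over negative siRNA, and all groups overlapped.

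Tropomyosin showed a small shift in composition that separated both knockdowns from the controls. The summed level of Tpm1 and Tpm2 over that of Tpm3 and Tpm4, per kilobase, was 1.38, 1.53 and 1.58 in the DNMT3a libraries, 1.53, 1.70 and 1.67 in the DNMT3b libraries, and 1.16, 1.31 and 1.21 in the negative libraries. Every knockdown library was above every negative library. The log2 difference was 0.29 for DNMT3a over negative siRNA and 0.41 for DNMT3b over negative siRNA, each with an exact permutation p = 0.1, the smallest this design allows, and 0.45 after adjustment over 9 ratio tests. No size of shift could pass the threshold in this design. Tpm1 made up 46.7 ± 2.08% of the tropomyosin transcripts after DNMT3a siRNA, 48.3 ± 1.22% after DNMT3b siRNA and 42.3 ± 1.11% after negative siRNA. Tpm4 made up 38.2 ± 1.37% after DNMT3a siRNA, 35.7 ± 1.44% after DNMT3b siRNA and 43.1 ± 1.87% after negative siRNA. The shares rest on the summed exon lengths, 6485 bp for Tpm1 (longest transcript 2890 bp) and 2203 bp for Tpm4 (2128 bp). With the longest transcript as the length, Tpm1 would take a larger share and Tpm4 a smaller one. With Tpm3 left out of the ratio, as an alternative chosen after seeing the data, the differences were 0.29 and 0.44. With the Tpm3-rs7 counts added to Tpm3 they were 0.28 and 0.45.

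**Figure D4:**
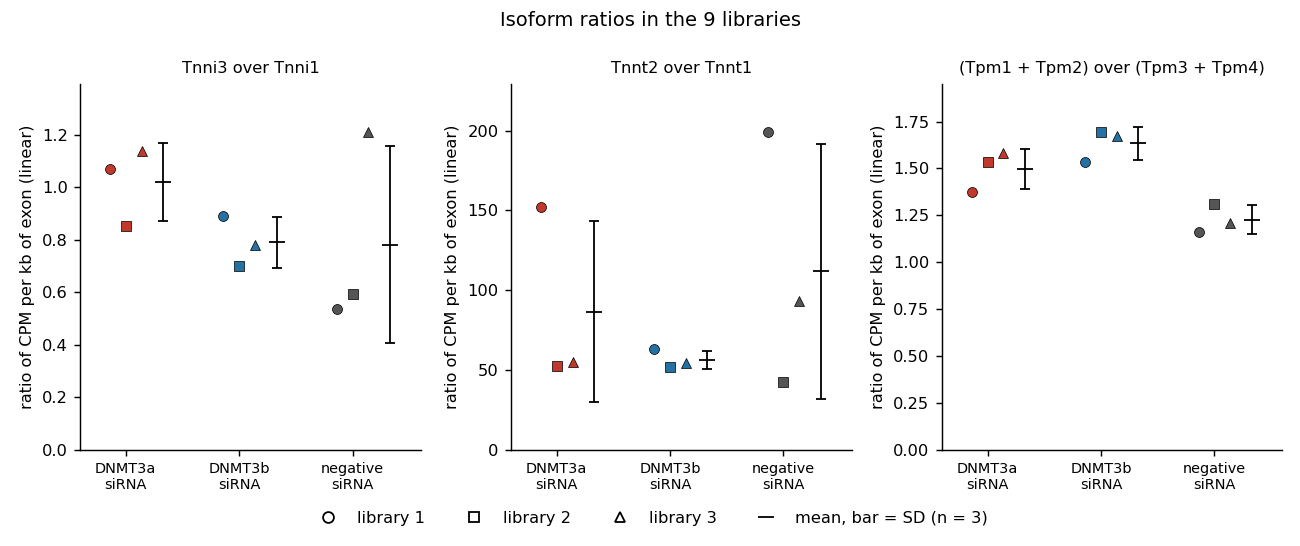
Ratios of CPM per kilobase of exon (y axes, linear, from 0) in each library, by siRNA group (x axes), for the troponin I, troponin T and tropomyosin genes; symbols mark the library number, and the dash with its bar is the mean ± SD of 3 libraries. The groups overlap for both troponin ratios, and only the tropomyosin ratio puts every knockdown library above every negative library.

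The level of tropomyosin relative to troponin C was examined after the values were seen and was not tested. The 4 tropomyosin genes together had 7.56 to 11.2 times the level of Tnnc1 per kilobase in the DNMT3a libraries, 6.74 to 8.76 times in the DNMT3b libraries and 19.9 to 23.1 times in the negative libraries. The size of this fall depends on the troponin gene chosen. Tnnc1 rose by 1.29 after DNMT3a siRNA and 1.78 after DNMT3b siRNA (log2), while Tnnt2 rose only by 0.75 and 1.00.

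Between the knockdowns no member was called by edgeR, DESeq2 or limma-voom on all 9 libraries without a block, although 9.55% of all genes were called in either direction and 4.47% were higher after DNMT3a siRNA. The log2 fold changes of DNMT3a over DNMT3b siRNA were negative for all 9 members, from -0.14 for Tpm4 to -0.59 for Tnni1. Their median was -0.28, against 0.01 over all genes tested. Several members correlated closely across libraries, so 9 negative values are not 9 separate observations. The share of negative values over all genes is not given here. An unadjusted p under 0.05 was reached by 2 members, Tnnc1 (-0.49 ± 0.21, adjusted p = 0.197) and Tpm2 (-0.28 ± 0.13, adjusted p = 0.189). For Tnnt2, at -0.26 ± 0.13 (adjusted p = 0.237), all 3 DNMT3a libraries were below the 3 DNMT3b libraries. No other member was separated in this way, and the share of all genes that were is not given here. Without DNMT3a library 2, Tnnc1 was called lower after DNMT3a siRNA than after DNMT3b siRNA, at -0.75 (adjusted p = 0.0254). With the libraries numbered 2 left out, Tnni1 (-0.86, adjusted p = 0.0111), Tnnc1 (-0.84, adjusted p = 0.00711) and Tpm2 (-0.39, adjusted p = 0.0335) were called lower, and with the library number as a block Tpm2 was (-0.29, adjusted p = 0.0463).

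DNMT3a and negative libraries of the same number deviated together from their group means, so the members were also compared within numbers. For Tnni3 the log2 differences of DNMT3a minus negative siRNA were 2.19, 1.65 and 1.55 for numbers 1 to 3. They were 1.20, 1.13 and 1.64 for Tnni1, and 1.01, 1.43 and 1.33 for Tnnc1. Tnnt2 gave 0.63, 0.74 and 0.90. Within numbers these 4 genes and Tnnt1 were higher after DNMT3a siRNA in 3 of 3 pairs. So were Tpm1 (0.07, 0.14 and 0.36) and Tpm2 (0.07, 0.10 and 0.11), while Tpm4 was lower in 3 of 3 (-0.19, -0.10 and -0.09). The share of all genes that kept 1 direction in 3 of 3 pairs is not given here, so these counts alone do not set the members apart. Adding the library number to the model as a block called the same 4 members for this comparison.

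Other components of the sarcomere moved with the troponins. For the gene groups below, the shares over all genes tested were 4.87% called higher and 10.1% called in either direction after DNMT3a siRNA. After DNMT3b siRNA these shares were 3.52% and 5.64%. Of 20 genes of the thin filament and its caps, 11 were called higher and 2 lower after DNMT3a siRNA (median log2 fold change 1.06), and 9 higher and 1 lower after DNMT3b siRNA (median 0.79). Nebl, a nebulin-like protein of the Z-disc, rose by 1.78 ± 0.12 (adjusted p = 3.82e-05) and 2.07 ± 0.12 after DNMT3a and DNMT3b siRNA, and Lmod2, which elongates thin filaments in heart muscle, rose by 1.75 ± 0.16 and 2.05 ± 0.16. Nrap rose by 1.66 ± 0.16 and 1.88 ± 0.16 and the actin-binding Cap2 by 1.32 ± 0.13 and 1.45 ± 0.13. Fhod3, a cardiac formin, rose by 1.19 ± 0.11 and 0.77 ± 0.11. Cfl2, the muscle cofilin that severs actin filaments, fell by 1.47 on the log2 scale after DNMT3a siRNA, at 63.2 ± 7.89 CPM, against 174 ± 5.57 CPM after negative siRNA, but had a log2 fold change of -0.02 after DNMT3b siRNA (adjusted p = 0.929). The difference between the knockdowns passed the test for Cfl2 (-1.45 ± 0.09, adjusted p = 8.02e-05).

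Of 15 genes of the thick filament and titin, 10 were called higher and 0 lower after DNMT3a siRNA (median 1.22), and 11 higher and 0 lower after DNMT3b siRNA (median 1.68). Mybpc3, the cardiac myosin-binding protein C, rose by 1.85 ± 0.16 after DNMT3a siRNA and 1.83 ± 0.16 after DNMT3b siRNA. Mylk3, the cardiac myosin light chain kinase, rose by 1.33 ± 0.16 and 1.71 ± 0.16, and Myom1 of the M-band by 0.98 ± 0.15 and 1.31 ± 0.15. Myh6, the alpha myosin heavy chain, rose by 1.22 ± 0.18 and 1.38 ± 0.18.

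Of 26 measured factors that act on the transcription or splicing of thin filament genes, 5 were called higher and 1 lower after DNMT3a siRNA (median 0.18), and 5 higher and 0 lower after DNMT3b siRNA (median 0.08). The cardiac homeobox factor Nkx2-5 rose by 1.59 ± 0.11 after DNMT3a siRNA and 1.54 ± 0.11 after DNMT3b siRNA, at 43.9 ± 3.04 and 42.2 ± 4.14 CPM, against 14.6 ± 1.43 CPM after negative siRNA. The splicing factors Rbm20 and Rbm24 rose by 1.34 ± 0.09 and 1.85 ± 0.23 after DNMT3a siRNA and by 1.34 ± 0.09 and 1.73 ± 0.23 after DNMT3b siRNA. Smyd1, a muscle methyltransferase, rose by 1.18 ± 0.16 and 1.69 ± 0.16, and the cofactor Myocd by 0.69 ± 0.14 and 1.00 ± 0.14.

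Of 20 kinases, phosphatases and proteases that act on troponin or tropomyosin, 3 were higher and 2 lower after DNMT3a siRNA (median -0.10), and 4 higher and 2 lower after DNMT3b siRNA (median 0.01). Trim63, a muscle ubiquitin ligase also called MuRF1, rose by 1.70 ± 0.12 and 1.42 ± 0.12, and Fbxo32, another one, rose by 0.59 ± 0.16 and 0.96 ± 0.16. Prkcb, a protein kinase C gene, fell by 1.84 after DNMT3a siRNA and by 0.93 after DNMT3b siRNA on the log2 scale. The catalytic subunits of protein kinase A, which phosphorylates cardiac troponin I, moved differently: Prkaca was lower after DNMT3a siRNA (-0.41 ± 0.08, adjusted p = 0.00824) and higher after DNMT3b siRNA (0.39 ± 0.08, adjusted p = 0.0151), and Prkacb fell after DNMT3b siRNA (-0.48 ± 0.07, adjusted p = 0.00224). Prkd1 rose by 0.43 ± 0.11 after DNMT3a siRNA.

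Of 25 genes of the nonmuscle and smooth muscle actin cytoskeleton, 1 was higher and 0 lower in each knockdown, with medians of 0.07 after DNMT3a siRNA and 0.09 after DNMT3b siRNA. The called gene was Myl9, a regulatory light chain of smooth muscle and nonmuscle myosin, in both cases (0.74 ± 0.15 and 0.81 ± 0.15).

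**Figure D5:**
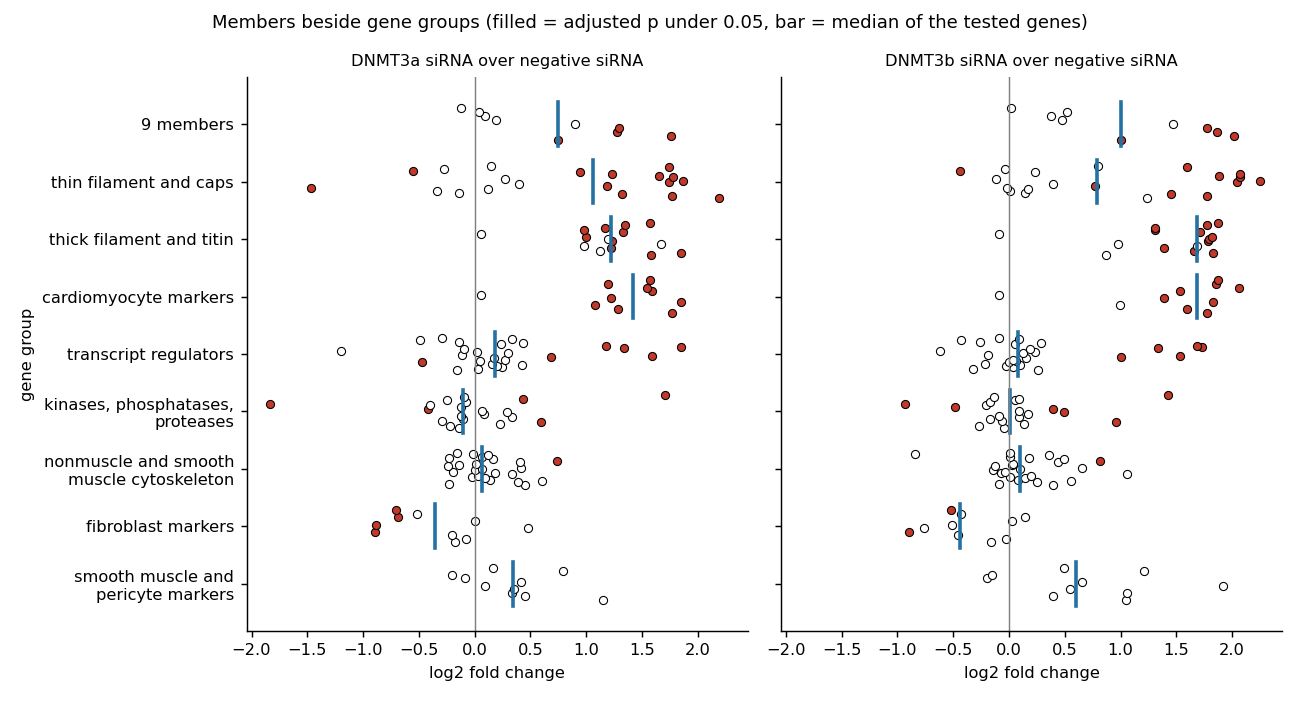
Log2 fold change (x axis) of every tested gene of 9 groups (y axis) for each knockdown over negative siRNA; each point is a gene, filled where the adjusted p is under 0.05, and the vertical bar is the median of the group. The medians of the 9 members (0.75 and 1.00), of the thin and thick filament and of the cardiomyocyte markers lie to the right of 0, and those of the cytoskeleton and the kinases lie close to it.

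The 4 called troponins were higher in the same comparisons as general cardiomyocyte markers. Of 10 such markers, chosen without the members but sharing Actc1, Myh6, Myl7, Ttn, Mybpc3 and Nkx2-5 with the groups above, 9 were called higher and 0 lower after DNMT3a siRNA (median 1.42), and 8 higher and 0 lower after DNMT3b siRNA (median 1.68). The mean log2 CPM of Tnnt2, Tnni3 and Tnnc1, with Tnni1 left out, was set against that of the markers in each library. The mean minus that of the markers differed by -0.05 for DNMT3a over negative siRNA (exact permutation p = 0.6). For DNMT3b over negative siRNA it differed by 0.12 (exact permutation p = 0.3). These means cover genes on both sides of the markers: in both comparisons the log2 fold change of Tnnt2 (0.75 and 1.00) was below the marker median and that of Tnni3 (1.76 and 2.01) above it, while Tnnc1 (1.29 and 1.78) was below it after DNMT3a siRNA and above it after DNMT3b siRNA. Tnni1 (1.27 and 1.87) was likewise below the marker median after DNMT3a siRNA and above it after DNMT3b siRNA. For DNMT3a over DNMT3b siRNA the mean minus that of the markers differed by -0.17. Every DNMT3a library lay below every DNMT3b library there (exact permutation p = 0.1, the smallest this design allows). The part of cell composition in the members' differences was not tested.

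Markers of other cells were counted in the same way. Of 10 fibroblast markers, 0 were higher and 4 lower after DNMT3a siRNA, and 0 higher and 2 lower after DNMT3b siRNA. Of 10 smooth muscle and pericyte markers edgeR called 0 in either knockdown, with medians of 0.34 after DNMT3a siRNA and 0.60 after DNMT3b siRNA. At an unadjusted p under 0.05 there were 3 after DNMT3a siRNA and 5 after DNMT3b siRNA, DESeq2 called 2 in each, and limma-voom called 0 after DNMT3a siRNA and 1 after DNMT3b siRNA. Their summed level was 8016 to 9166 CPM after DNMT3a siRNA, 8186 to 9752 CPM after DNMT3b siRNA and 5682 to 8367 CPM after negative siRNA. Of 10 endothelial markers edgeR called 0 after DNMT3a siRNA (1 at an unadjusted p under 0.05, 0 by DESeq2 and limma-voom) and 1 higher, Kdr, after DNMT3b siRNA (4 at an unadjusted p under 0.05, 2 by DESeq2 and 1 by limma-voom). Their summed level was 73.6 to 129 CPM after DNMT3a siRNA, 162 to 168 CPM after DNMT3b siRNA and 91.4 to 132 CPM after negative siRNA, so every DNMT3b library stood above every negative library. The median log2 fold change of the endothelial markers was -0.09 after DNMT3a siRNA and 1.00 after DNMT3b siRNA, with Pecam1 at 19.0 ± 1.08 CPM after DNMT3b siRNA and 8.90 ± 5.13 CPM after negative siRNA (adjusted p = 0.232). Of 10 macrophage markers edgeR called 3 lower after DNMT3a siRNA, where 9 had an unadjusted p under 0.05 and DESeq2 called 6, and 0 after DNMT3b siRNA (0 at an unadjusted p under 0.05, and 0 by DESeq2 and limma-voom). Of 8 tested epicardial markers 1 was higher and 3 were lower after DNMT3a siRNA, and 1 was lower after DNMT3b siRNA, where 5 had an unadjusted p under 0.05 and DESeq2 called 3. Of 12 skeletal muscle markers, 8 were too low to test, including Myod1 and Myog, and Ckm, which the heart also expresses, was called higher by edgeR and DESeq2 in both knockdowns and by limma-voom after DNMT3a siRNA only. Only 1 of 8 erythroid markers, Alas2, was tested, and no tool called it in either knockdown. The part of these cells in the members' differences was not tested.

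The members differed in how closely they tracked each other across the 9 libraries, which share groups and library numbers. Pearson correlations of log2 CPM, given as descriptions, were 0.965 between Tnni1 and Tnnc1, 0.957 between Tnni3 and Tnnc1, 0.952 between Tpm1 and Tpm2 and 0.950 between Tnnt1 and Tpm1. Tnnt2 correlated at 0.925 with Tnni1 and at -0.02 with Tpm4. Tnnt1, which was not called, therefore followed Tpm1 more closely than it did its neighbour Tnni3 (0.834).

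Among the 11509 genes whose average log2 CPM was 2 or more, those with the pattern most like Tnni3 over the 9 libraries were Itga9 (r = 0.994), Sirt3 (0.991), Myoz2 (0.991), Kcnq1 (0.990) and Clip4 (0.989). Those most like Tnni1 were Cyc1 (0.986), Casq2 (0.985), Eno3 (0.983), Ldhb (0.983) and Sh3bgr (0.982). The genes nearest to Tnnt2 were Cs (0.978), Chrm2 (0.976), Mtln (0.971), Ndufa1 (0.970) and Timm29 (0.968). For Tpm2 they were Col23a1 (0.991), Khdrbs3 (0.986), Smim11 (0.981), Cdkn1c (0.979) and Coq3 (0.974). No gene stood in more than 1 of these 4 sets of 5.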

How the data were processed

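Gene-level read counts from 9 libraries were deposited by the authors as raw whole-number counts, 1 table per library. Per the submitters' processing notes, the tools were FastQC, TopHat2 and HTSeq, with the mouse genome mm10 (GRCm38). Which annotation release was used, and whether counting considered strand, is not stated in those notes or in the labels. Lines that name no gene (49.2% to 56.2% of all entries, of which reads without a unique place were 36.6% to 42.5%) were left out, which leaves 27852412 to 35896018 counts per library. A GENCODE symbol was found for 42462 gene identifiers.

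Counts were scaled by TMM and tested with edgeR 4.0.16 (R 4.3.3, quasi-likelihood F test, 1 model over all 9 libraries, Benjamini-Hochberg adjustment over 16561 genes with at least 10 counts by edgeR's expression filter). The standard error is the log2 fold change divided by the square root of F. The steps were tested on simulated data. Log2 CPM used a prior count of 2. Ratios were compared by two-sided exact permutation tests. Alternatives were DESeq2 1.42.0, limma-voom (limma 3.58.1), other scalings and filters, a fold threshold, fits on 2 groups, the replicate block, and leaving out libraries. Same-numbered DNMT3a and negative libraries deviated together from their group means (r = 0.434, 0.513 and 0.459 over genes). These numbers thus appear to pair the samples, as judged from the data alone, and the labels do not say what they stand for. The main model and the exact tests given here did not use this pairing. A paired exact permutation test on 3 pairs can give no p below 0.25. No pair of libraries within a group agreed within sampling noise.

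The members and gene lists were chosen with earlier results of these data known. Genes named are the members, the fast skeletal troponins, both siRNA targets, up to 4 called genes per list and knockdown with the smallest adjusted p, the 5 genes most correlated with each of 4 members, and overlapping or copied genes. The tropomyosin to troponin C ratio, and marker genes named singly, were chosen after their values were seen.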

Additional observations from a re-analysis of the deposited data

How the results depend on the processing

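Tnni3 was called in both knockdowns over negative siRNA under all 19 alternatives. The 4 members called after DNMT3a siRNA became 1 with a fold threshold of 1.5 and 3 to 5 when 1 library was left out. After DNMT3b siRNA the 4 became 2 with the fold threshold, 7 with the libraries numbered 2 left out, and 3 to 7 when 1 library was left out. Between the knockdowns 0 became 3 (Tnni1, Tnnc1 and Tpm2) with the libraries numbered 2 left out, and 0 to 1 when 1 library was left out. Library numbers of DNMT3b siRNA were not shown to pair with the other groups: with the replicate block, 7 members were called after DNMT3b siRNA and 1 (Tpm2) between the knockdowns, while the block called the same 4 after DNMT3a siRNA. The causes were not tested.

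Values near 0 changed sign. When 1 library was left out, DNMT3a over negative siRNA ranged from -0.053 to 0.22 for Tpm2, from -0.26 to 0.34 for Tpm3, from -0.85 to 0.27 for the Tnnt2 to Tnnt1 ratio, and from -0.087 to 0.0083 for the troponins relative to cardiomyocyte markers, the last being 0.22 against the median marker. DNMT3b over negative siRNA ranged from -0.025 to 0.071 for Tpm4, which was -0.0033 without a filter, and from -0.11 to 0.48 for the Tnni3 to Tnni1 ratio. DNMT3a over DNMT3b siRNA ranged from -0.066 to 0.70 for the Tnnt2 to Tnnt1 ratio.

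Over all genes, 1671, 934 and 1582 calls (DNMT3a over negative, DNMT3b over negative, DNMT3a over DNMT3b) became 144, 134 and 53 with the fold threshold, and 868 to 1839, 287 to 1781 and 524 to 1962 when 1 library was left out. The first became 946 in a fit on 2 groups. The second became 1715 with DESeq2 and 1801 with the replicate block, and the third 2513 with the block. Of the first, 807 were higher, against 1019 of 1668 when scaled by library size alone. Counts were few for Tnni2 (2 to 14 per library) and Tnnt3 (8 to 84).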
